A study of Mus musculus with 24 samples.

Results

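The comparison asked whether pulmonary fibroblasts labelled TLR4-/- changed their transcripts in response to recombinant mouse TGF-β1 (rmTGF-β1) by a different amount than wild type (WT) fibroblasts did. For each gene, the log2 change from PBS to rmTGF-β1 in WT cells was subtracted from that in cells labelled TLR4-/-. The calls rest on 12 of the 24 libraries of the series, 3 in each of 4 conditions, and covers all 16258 genes that passed a filter on low counts, with no gene chosen by its value. The conditions were WT with PBS, WT with rmTGF-β1, TLR4-/- with PBS and TLR4-/- with rmTGF-β1, the cytokine at 2 ng/ml and all for 24 h. Both genotypes are C57BL/6, and the fibroblasts of each group came from a pool of 3 to 4 lungs of mice aged 4 to 8 weeks. Cells were used at passages 3 to 6 after a night in Opti-MEM, a medium low in serum. The other 12 libraries are the same conditions with 1 μg/ml recombinant mouse CIRP (rmCIRP), a protein that acts through TLR4. They entered the fit, and the same contrast on that background is given at the end. It is a different quantity, since rmCIRP acted unequally on the genotypes: Il6 averaged 12655 normalized counts with PBS and 55932 with rmCIRP in WT, and 11429 and 12581 in TLR4-/-. The labels do not say that libraries of a condition came from separate cultures or animals, so p-values measure only the spread between these libraries, which may be technical.

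TGF-β1 binds a type II receptor that activates the type I receptor ALK5, encoded by Tgfbr1. This phosphorylates SMAD2 and SMAD3, which enter the nucleus with SMAD4 and raise the transcription of matrix, contractile and feedback genes in fibroblasts. The related BMP ligands act through other type I receptors, among them ACVR1, and through SMAD1 and SMAD5, whose best known targets are the ID genes. TLR4 is the receptor for lipopolysaccharide and signals through MyD88 and TRIF to NF-κB and interferon genes.

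The targeted gene was checked first. Tlr4 had 718, 802 and 758 normalized counts (counts divided by the size factor of the library) in the 3 WT libraries with PBS and 927, 892 and 891 in those labelled TLR4-/-. With rmTGF-β1 it had 671, 649.9 and 629.7 in WT and 702, 808 and 769 in TLR4-/-. The mRNA was thus no lower in the libraries labelled TLR4-/-, and the name TLR4-/- is used below only as the label. Its difference in response was -0.02 ± 0.08 (log2, SE). All 12 fibroblast markers listed passed the filter, and they summed to 582304 to 620635 normalized counts in WT with PBS and 551813 to 613354 in TLR4-/- with PBS. The 13 macrophage and 10 endothelial markers listed passed it too, so passing does not by itself identify the cells. The summed level of 13 macrophage markers was 90639 to 98213 normalized counts in WT with PBS, 82347 to 94105 in WT with rmTGF-β1, 329683 to 379127 in TLR4-/- with PBS and 347866 to 363939 in TLR4-/- with rmTGF-β1. The genotypes thus differed in macrophage transcripts at both treatments. For the difference in response, edgeR called none of the 13, against 0.0861% of all genes tested. At an unadjusted p under 0.05 there were 2 (15.4%), against 10.4% of all genes, and the median difference of the 13 was 0.13. Whether macrophage content enters the differences in response was not tested. In cultures read as bulk RNA, more cells of a type and more RNA per cell cannot be told apart. Reads on genes were 31585969 to 39664606 per library. Replicates differed beyond counting error in all 12 pairs, with a chi-square per degree of freedom of 2.74 to 7.03 except in the pairs that hold library 3 of TLR4-/- with rmTGF-β1, where it was 11.9 and 15.6. Some results that rest on that library are given with and without it, and for others no value without it is given.

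A genotype difference in the rmTGF-β1 response was called for 14 of 16258 genes (0.0861%). The threshold was an adjusted p under 0.1 in the quasi-likelihood test of edgeR after Benjamini-Hochberg adjustment. The response was higher in TLR4-/- for 6 genes (0.0369%) and lower for 8 (0.0492%). Only 1 gene (0.00615%), Bc1, was called with a difference of at least 1 on the log2 scale. At an unadjusted p under 0.05 there were 1686 genes (10.4%), of which 974 (5.99%) were higher and 712 (4.38%) lower. The count of 14 depended on single libraries. It was 0 without WT PBS library 1 or 2, WT rmTGF-β1 library 2 or 3, TLR4-/- PBS library 2 or TLR4-/- rmTGF-β1 library 1, where edgeR left 1423 to 1552 genes at an unadjusted p under 0.05. It was 4 without TLR4-/- PBS library 1, 24 without TLR4-/- PBS library 3, 119 without TLR4-/- rmTGF-β1 library 2 and 37 without TLR4-/- rmTGF-β1 library 3, and the last 2 settings kept all 14 genes. DESeq2 called 163 genes, all 14 among them.

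Many more genes were called for each of the responses that were subtracted, whose SEs are smaller. In WT, 2019 genes (12.4%) were called, 108 of them (0.664%) with a size of at least 1, 938 (5.77%) that rose and 1081 (6.65%) that fell. In TLR4-/-, 3884 genes (23.9%) were called, 291 of them (1.79%) with that size, 1975 (12.1%) that rose and 1909 (11.7%) that fell. These responses share no library. Of the genes called, 1325 were called in both, which is 65.6% of the WT calls and 34.1% of the TLR4-/- calls, and 1310 of the 1325 moved in the same direction. Another 694 genes were called in WT alone, and the difference was called for 0 of these, although 78.5% of them had the same sign in TLR4-/-. A further 2559 were called in TLR4-/- alone, and the difference was called for 8 of these. Over all genes tested the difference was called for 0.0861%, so few called differences could fall in either set. A call in 1 genotype and not in the other is thus not by itself a called difference. Over the 12257 genes that averaged 50 or more normalized counts, the log2 responses correlated at Pearson's r = 0.71 across genes, which are not independent replicates. Single libraries moved these counts as well. The WT count was 1253 without WT PBS library 3 and 1029 without WT rmTGF-β1 library 2, and the TLR4-/- count was 2517 without TLR4-/- rmTGF-β1 library 3. The SD of the responses over these genes was 0.19 in WT and 0.25 in TLR4-/-, and the SD of their differences was 0.18.

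**Figure D1:**
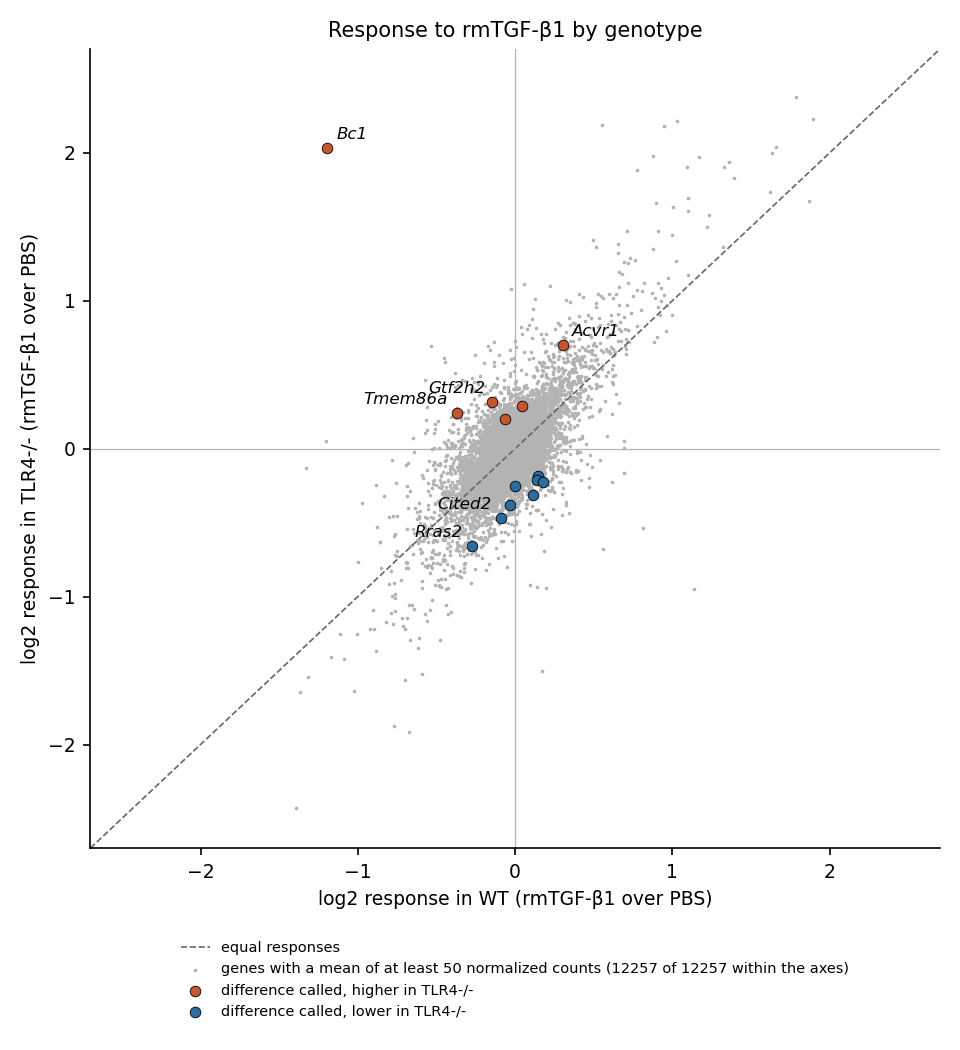
Log2 response to rmTGF-β1 over PBS in WT (horizontal axis) and in cells labelled TLR4-/- (vertical axis), 1 point for each of 12257 genes that averaged 50 or more normalized counts, and the 14 genes with a called difference in colour. Most points lie along the dashed line of equal responses, and Bc1 stands far above it at -1.19 in WT and 2.03 in TLR4-/-.

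The spread between these libraries sets the precision of each difference. Each group came from a pool of lungs, so the SEs and intervals may leave out variation between pools or animals. The median SE of the difference was 0.12 over all genes tested and 0.09 over the 12257 genes that averaged 50 or more normalized counts. In 97.4% of the latter, the 95% interval of the difference lay between -1 and 1, and in 80.4% it lay between -0.5 and 0.5. In the rest of them, a difference of at least 0.5 in size lay within the interval. The smallest called difference of a higher gene was 0.24, for Cdk11b.

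Among the 6 genes with a higher response in TLR4-/-, Acvr1 belongs to the TGF-β superfamily itself and encodes the BMP type I receptor ALK2. It had 2873, 2868 and 2712 normalized counts in WT with PBS and 3401, 3585 and 3485 with rmTGF-β1. The TLR4-/- libraries had 2727, 2688 and 2656 with PBS and 4357, 3941 and 4789 with rmTGF-β1. The genotypes overlapped with PBS and were separate with rmTGF-β1. Acvr1 rose by 0.30 ± 0.05 (log2, SE) in WT and by 0.70 ± 0.05 in TLR4-/-, and the difference was 0.40 (95% interval 0.26 to 0.54, edgeR adjusted p = 0.0443). Gtf2h2, a subunit of the general transcription factor TFIIH, had 724, 649 and 686 in WT with PBS and 669, 585 and 609 with rmTGF-β1. Libraries labelled TLR4-/- had 639, 664 and 665 with PBS and 769, 798 and 874 with rmTGF-β1. The treated and PBS libraries overlapped in WT and were separate in TLR4-/-, with a difference of 0.47 ± 0.09 (edgeR adjusted p = 0.0622).

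Tmem86a, which encodes a membrane enzyme of plasmalogen breakdown, moved in opposite directions in the genotypes. It had 393, 421 and 429 normalized counts in WT with PBS and 333, 333 and 300.04 with rmTGF-β1. Values in TLR4-/- were 821, 789 and 858 with PBS and 960.02, 924 and 1026 with rmTGF-β1. No pair of the 4 conditions compared overlapped. It fell by 0.37 on the log2 scale in WT, rose by 0.24 in TLR4-/-, and differed by 0.61 ± 0.12 (edgeR adjusted p = 0.0594).

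Bc1, a small noncoding RNA best known from neurons, had the highest called difference and the widest spread. It had 1309, 1226 and 768 normalized counts in WT with PBS and 749, 508 and 210.5 with rmTGF-β1. In TLR4-/- it had 243, 160.01 and 181 with PBS and 807, 1206 and 393 with rmTGF-β1. PBS and treated libraries were separate in each genotype, lower with rmTGF-β1 in WT and higher in TLR4-/-, while the 2 sets of treated libraries overlapped. The difference was 3.23 (95% interval 1.87 to 4.58, edgeR adjusted p = 0.0880), and limma-voom gave an adjusted p of 0.115. Bc1 shares sequence with dispersed repeats of the genome, so the reads counted on it are uncertain.

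The remaining higher genes had small differences with narrow spread. Cfdp1, linked to chromatin, had 2595 ± 55.5 (SD, n = 3) normalized counts in TLR4-/- with PBS and 2967 ± 106 with rmTGF-β1, against 3163 ± 109 and 3033 ± 93.6 in WT. Cdk11b, a kinase of transcription and splicing, had 3086 ± 65.7 and 3747 ± 94.9 in TLR4-/- and 3649.7 ± 74.7 and 3779 ± 67.6 in WT. In both genes the PBS libraries of the genotypes were separate, TLR4-/- lower, and the treated libraries overlapped. The differences were 0.26 for Cfdp1 and 0.24 for Cdk11b (edgeR adjusted p = 0.0443 for each).

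Among the 8 genes with a lower response in TLR4-/-, Hif1a, the oxygen-regulated factor of the hypoxia response, had 10127, 9756 and 10949.5 normalized counts in WT with PBS and 10034, 9823 and 10359 with rmTGF-β1. The TLR4-/- libraries had 11021, 10593 and 10060.5 with PBS and 7999, 8075 and 8169.6 with rmTGF-β1. Treated and PBS libraries overlapped in WT and were separate in TLR4-/-, where Hif1a fell by 0.38. Cited2, which competes with HIF-1α for the coactivators CBP and p300, had 6938, 6914 and 6728 in WT with PBS and 6200.25, 6651 and 6558 with rmTGF-β1. Libraries labelled TLR4-/- had 6298, 6822 and 6707 with PBS and 4715, 4758 and 4768 with rmTGF-β1. The 3 treated TLR4-/- libraries lay below the other 9. The differences were -0.35 ± 0.07 for Hif1a (edgeR adjusted p = 0.0880) and -0.38 ± 0.07 for Cited2 (edgeR adjusted p = 0.0637). Sp3, a zinc finger factor that binds GC boxes, had 2297 ± 19.04 normalized counts with PBS and 2307 ± 46.1 with rmTGF-β1 in WT, against 2596 ± 62.0 and 2171 ± 82.9 in TLR4-/-, a difference of -0.25 ± 0.05 (edgeR adjusted p = 0.0928).

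Rras2, a small GTPase of the Ras family, fell in both genotypes and further in TLR4-/-. It had 5694, 5541 and 5588 normalized counts in WT with PBS and 4666, 4757 and 4561 with rmTGF-β1. Values in TLR4-/- were 5665, 5798 and 5253 with PBS and 3316, 3899 and 3328 with rmTGF-β1. The genotypes overlapped with PBS only. Its log2 response was -0.27 in WT and -0.66 in TLR4-/-, with a difference of -0.39 ± 0.07 (edgeR adjusted p = 0.0443).

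The other 4 lower genes, like Sp3, were already higher in TLR4-/- than in WT with PBS, with no overlap between libraries. The PBS values enter the difference by which the called genes, higher or lower, were chosen. Their levels with PBS are thus no separate evidence, and the share of all genes without such overlap was not counted. Kctd12, an auxiliary protein of GABA-B receptors, had 2272 ± 93.8 (SD, n = 3) normalized counts in WT with PBS and 5848 ± 109.7 in TLR4-/- with PBS. With rmTGF-β1 it had 2577 ± 57.8 in WT and 4979 ± 214 in TLR4-/-, so that it rose in WT and fell in TLR4-/-, with a difference of -0.40 (edgeR adjusted p = 0.0443). Fam174a differed by -0.43 (edgeR adjusted p = 0.0443), Abhd17b, which removes palmitate from proteins, by -0.35 (edgeR adjusted p = 0.0955), and Vma21, an assembly factor of the proton pump of lysosomes, by -0.33 (edgeR adjusted p = 0.0880). In each of these 3 the treated TLR4-/- libraries were separate from the PBS ones and lower. The treated libraries of the genotypes overlapped in Fam174a and Abhd17b.

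**Figure D2:**
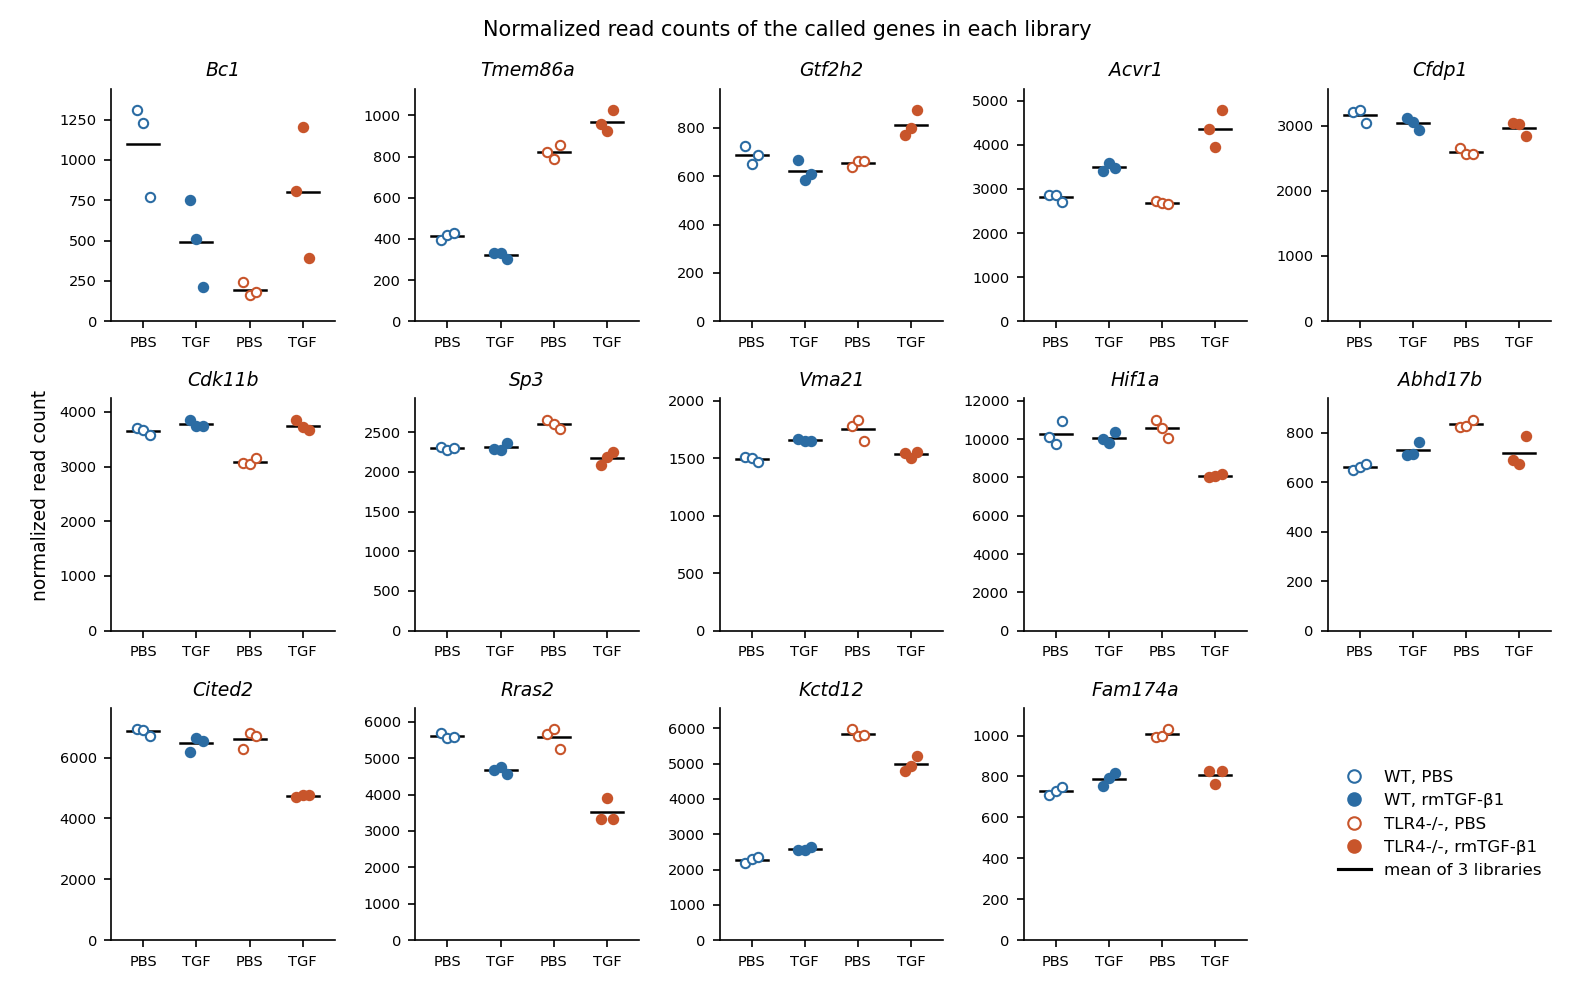
Normalized read counts (vertical axes, from 0) of the 14 genes with a called difference, 1 panel each, in the 3 libraries of WT with PBS, WT with rmTGF-β1 (TGF), TLR4-/- with PBS and TLR4-/- with rmTGF-β1, with a bar at the mean. Bc1 spreads widely within conditions, while Acvr1 and Cited2 differ between genotypes only with rmTGF-β1 and Kctd12 and Tmem86a at both treatments.

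The promoters of the 2 highest and the 2 lowest of these genes are shown because SMAD and AP-1 proteins are the usual DNA-binding factors of this pathway. Each run is the 250 bases before the annotated start of the RefSeq table (build GRCm38.p6, 5′ to 3′ on the strand of the gene), with matches to CAGAC or its reverse complement GTCTG, the short SMAD motif, in capitals. No match to TGANTCA, the AP-1 motif, was in these windows.
Bc1, chr7:144914220-144914469, plus strand: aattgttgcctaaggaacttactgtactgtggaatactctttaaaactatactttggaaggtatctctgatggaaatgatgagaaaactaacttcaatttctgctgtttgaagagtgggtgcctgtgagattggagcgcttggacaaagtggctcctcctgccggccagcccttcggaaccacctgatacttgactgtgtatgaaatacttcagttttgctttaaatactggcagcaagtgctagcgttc
Tmem86a, chr7:47050390-47050639, plus strand: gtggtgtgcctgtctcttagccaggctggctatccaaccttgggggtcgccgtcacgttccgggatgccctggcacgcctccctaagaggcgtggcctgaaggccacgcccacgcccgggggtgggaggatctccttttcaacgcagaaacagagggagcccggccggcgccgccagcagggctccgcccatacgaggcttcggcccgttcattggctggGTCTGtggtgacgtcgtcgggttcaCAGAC
Fam174a, chr1:95313378-95313627, plus strand: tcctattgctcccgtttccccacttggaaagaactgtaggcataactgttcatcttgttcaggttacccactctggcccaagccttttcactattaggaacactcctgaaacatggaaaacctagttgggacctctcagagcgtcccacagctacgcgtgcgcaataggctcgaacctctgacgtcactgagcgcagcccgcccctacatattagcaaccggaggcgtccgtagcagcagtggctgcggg
Kctd12, chr14:102982638-102982887, minus strand: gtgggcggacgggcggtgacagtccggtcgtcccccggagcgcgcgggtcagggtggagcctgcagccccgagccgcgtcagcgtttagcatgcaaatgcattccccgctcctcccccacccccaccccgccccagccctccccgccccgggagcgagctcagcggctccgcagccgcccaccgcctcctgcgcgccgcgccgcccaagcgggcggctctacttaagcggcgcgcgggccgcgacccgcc

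Tmem86a held 2 SMAD matches, the second at the last bases before the start, and the other 3 held 0. All 14 called genes had an entry in the table. Of them, 5 (35.7%) held the SMAD motif in this window, against 42.2% of all 32851 promoters there. The AP-1 motif was in 0 of the 14, against 6.75% of all. The shares describe these letters only.

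The reference genes of the pathway, a fixed set that does not depend on passing the test, had 0 called differences among the 18 reported here by edgeR. The share of all genes tested was 0.0861%, so a count of 0 in so small a set does not show equal responses. By an unadjusted p under 0.05 there were 3, Il11, Tagln and Id1, against 10.4% of all genes, and DESeq2 called none of the 18. Among ligand and receptors, Tgfb1 rose by 0.51 in WT and 0.60 in TLR4-/-, and Tgfbr1, the type I receptor, by 0.30 and 0.55. Their differences were 0.09 (95% interval -0.14 to 0.32) and 0.25 (-0.02 to 0.52). Tgfbr2, the type II receptor, was called in neither genotype, with a difference of -0.06 (-0.19 to 0.08). Smad3 fell in both, at -0.40 and -0.56. The feedback inhibitors Smad7 and Skil rose in both, by 0.17 and 0.16 for Smad7 and by 0.19 and 0.16 for Skil, and the intervals of their differences lay between -0.16 and 0.13.

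Of the profibrotic targets, 3 rose in both genotypes with an interval of the difference that included 0. Ccn2, a matricellular growth factor, rose by 0.36 in WT and 0.35 in TLR4-/- (difference -0.01, 95% interval -0.26 to 0.24), and Postn, a matricellular protein, by 0.42 and 0.35 (-0.07, -0.27 to 0.14). Nox4, an oxidase induced in myofibroblasts, rose by 0.78 and 0.83 (0.05, -0.37 to 0.47). Differences of up to 0.24 for Ccn2 and up to 0.47 for Nox4 lie within these intervals.

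Il11, a profibrotic cytokine, had the highest difference of the 18, and its size depended on a single library. It had 31084, 37891 and 30479.6 normalized counts in WT with PBS and 56853, 53644 and 52538 with rmTGF-β1. In TLR4-/- it had 11144, 11802 and 10388 with PBS and 27069, 19038 and 45813 with rmTGF-β1. Il11 rose by 0.71 in WT and by 1.47 in TLR4-/-, with a difference of 0.76 (95% interval 0.06 to 1.46, edgeR adjusted p = 0.435). Without library 3 of TLR4-/- with rmTGF-β1 the difference was 0.36, and without library 2 it was 1.02. The levels stayed lower in TLR4-/- at both treatments.

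The contractile and collagen genes gave small or opposite values. Acta2, the smooth muscle actin of myofibroblasts, was called in neither genotype, at 0.02 in WT and -0.05 in TLR4-/-. Tagln, the actin-binding protein transgelin, had 801, 692 and 883 normalized counts in WT with PBS and 715, 876 and 900.1 with rmTGF-β1. The TLR4-/- libraries had 867, 979 and 1013 with PBS and 714, 733 and 713 with rmTGF-β1. The WT conditions overlapped and the TLR4-/- conditions did not. The difference was -0.47 (95% interval -0.80 to -0.14, edgeR adjusted p = 0.286). Col1a1 rose in WT by 0.22 and was at 0.10 in TLR4-/-, where it was not called (difference -0.12, -0.36 to 0.11). Col3a1 fell in TLR4-/- by 0.32 and was at -0.08 in WT (difference -0.23, -0.59 to 0.12). Fn1 was called in neither genotype. Il6 was called in neither, and its difference was -0.24 (-0.91 to 0.44).

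**Figure D3:**
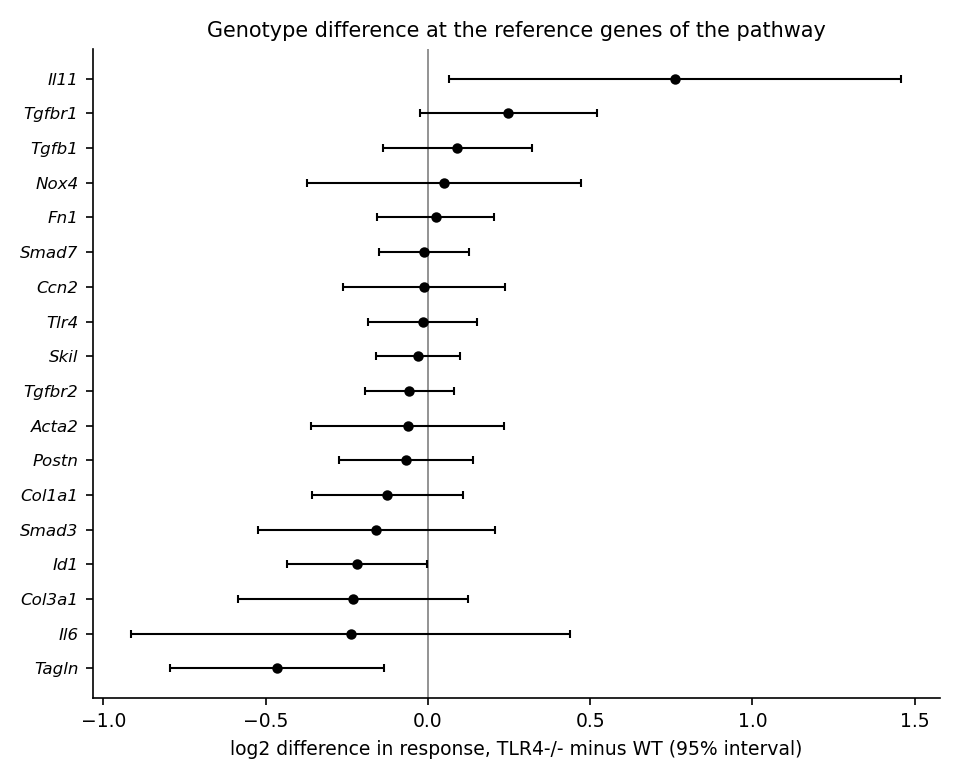
Log2 difference in the response to rmTGF-β1, TLR4-/- minus WT, for the 18 reference genes reported, points with 95% intervals. All but Il11, Tagln and Id1 have intervals that include 0, and none of the 18 was called after adjustment.

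In 19 lists of pathway and tissue genes written for this comparison, 456 genes were tested. The difference was called for 0 of the 456 by edgeR, against 0.0861% of all genes tested. The called genes Acvr1 and Hif1a were on none of these lists, so the count also reflects which genes were listed. At an unadjusted p under 0.05 there were 50 of them (10.96%), against 10.4% of all genes. DESeq2 called 4, Col27a1, Inhbb, Itgb8 and Pdgfa, where it called 163 of 12350 genes in all. The count of 0 depended on the filter and on the libraries. With no filter on low counts edgeR called 68 of the list members, with Il11, Il6, Id1, Tagln and Col3a1 among them. In that setting it called 563 of 34285 genes in all. Without library 2 of TLR4-/- with rmTGF-β1 it called 11 list members, and 119 of 16528 genes in all. Of the 456 genes, 128 were called for the response in WT and 183 in TLR4-/-, against 12.4% and 23.9% of all genes tested. The list members named below other than Id1 were chosen after their values were seen. The lowest adjusted p was 0.155, for Inhbb, a subunit of activin B. It had 360, 421 and 416 normalized counts in WT with PBS and 266, 266 and 265 with rmTGF-β1. Libraries labelled TLR4-/- had 881, 948 and 837 with PBS and 287, 426 and 221 with rmTGF-β1. It fell in both, at -0.59 in WT and -1.52 in TLR4-/-. The difference was -0.93, and -0.72 without library 3 of TLR4-/- with rmTGF-β1.

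The list of SMAD factors, feedback and ID genes had 27 members tested, a median difference of -0.02 against 0.015 for all genes tested, and 8 members at an unadjusted p under 0.05 (29.6%), 3 higher and 5 lower. The higher ones were Bhlhe40, Smurf1 and Tgif1, and the lower ones Id1, Id2, Id3, Id4 and Smad6. Id4 had 1192, 1128 and 1214 normalized counts in WT with PBS and 944, 948 and 876 with rmTGF-β1. Values in TLR4-/- were 746, 766 and 824 with PBS and 405, 555 and 332 with rmTGF-β1. Its difference was -0.50 ± 0.18, with an edgeR adjusted p of 0.304. Smad6 had 1725, 1732 and 1857 in WT with PBS and 1695, 1946 and 1628 with rmTGF-β1. In TLR4-/- it had 1373, 1422 and 1428 with PBS and 978, 1090.4 and 669 with rmTGF-β1. Treated and PBS libraries of Smad6 overlapped in WT and not in TLR4-/-, and the difference was -0.61 ± 0.23, with an edgeR adjusted p of 0.327. Id1, Id2 and Id3 differed by -0.22, -0.18 and -0.36. Each of the 5 fell in TLR4-/- at the threshold, while in WT only Id2 and Id4 did. The lowest treated TLR4-/- value of each of the 5 was that of library 3. Without that library the differences were -0.14 for Id1, -0.11 for Id2, -0.22 for Id3, -0.34 for Id4 and -0.42 for Smad6.

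The ligand and receptor list of the pathway had 21 members and 6 (28.6%) at an unadjusted p under 0.05, 3 in each direction. The largest in size was Itgb8, an integrin subunit that frees latent TGF-β, at -1.59 ± 0.44, with 15.95 normalized counts or fewer in each treated TLR4-/- library. Tgfbr3, the coreceptor betaglycan, fell in both, at -0.64 in WT and -1.08 in TLR4-/-, and differed by -0.44 ± 0.17, with an edgeR adjusted p of 0.355. Among 34 stromal growth factors, 8 (23.5%) had an unadjusted p under 0.05, 4 in each direction. Pdgfa, a mitogen for mesenchymal cells, had 2253, 2258 and 2015 normalized counts in WT with PBS and 2422, 2708 and 2514 with rmTGF-β1. The TLR4-/- libraries had 2329, 2399 and 2291 with PBS and 3436, 3114 and 4019 with rmTGF-β1. The difference was 0.37 ± 0.10, and 0.27 without library 3 of TLR4-/- with rmTGF-β1. Fgf10, a growth factor for the lung epithelium, differed by -0.52 ± 0.18.

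In the matrix lists the share of genes at an unadjusted p under 0.05 lay on both sides of the 10.4% of all genes. Of 27 fibrillar collagen and crosslinking genes, 2 (7.41%) had an unadjusted p under 0.05, both higher. Of the same 27, 11 rose in WT and 10 in TLR4-/-, against 5.77% and 12.1% of all genes tested. Of 31 matricellular and elastic fibre genes, 1 (3.23%) had an unadjusted p under 0.05. Among 27 proteases and inhibitors there were 5 (18.5%), of which 4 were lower, with Adamts5, an aggrecanase, at -0.67 ± 0.22. Without library 3 of TLR4-/- with rmTGF-β1, Adamts5 was at -0.50. Of 25 contractile genes 2 (8%) had an unadjusted p under 0.05. The glycolysis and hypoxia list had 4 of 25, all higher, and the lists of serine and glycine synthesis and of cell cycle genes had 0. None of these lists held a called gene, and the called gene Hif1a was not on the glycolysis and hypoxia list.

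Inflammatory cytokines and chemokines had a median difference of -0.17 over 38 genes, with 5 at an unadjusted p under 0.05, 4 of them lower. Of these 38 genes, 4 fell in WT and 13 in TLR4-/-, against 6.65% and 11.7% of all genes tested. Cxcl5, which attracts neutrophils, had 638, 1099 and 839.9 normalized counts in WT with PBS and 613, 422 and 578 with rmTGF-β1. Libraries labelled TLR4-/- had 919.7, 584 and 592 with PBS and 149.6, 199.8 and 205 with rmTGF-β1. It fell by 1.92 in TLR4-/-, where no library overlapped, and its difference of -1.24 ± 0.40 had an edgeR adjusted p of 0.273. The 28 interferon-stimulated genes had a median difference of 0.26 and 0 members at an unadjusted p under 0.05, and their summed level in treated TLR4-/- libraries ranged from 6947 to 13962 normalized counts. Of 15 members of the TLR4 receptor complex and its adaptors, 0 had an unadjusted p under 0.05 for a higher or lower difference, and the differences lay between -0.15 and 0.07. Among the remaining lists, genes at an unadjusted p under 0.05 were 2 of 27 basement membrane and other collagens, 2 of 22 Wnt ligands and inhibitors, 1 of 22 sterol synthesis genes, 0 of 19 complement genes, 0 of 6 MHC class II genes and 4 of 14 macrophage genes that need TGF-β in microglia. Markers of other cells were also read. Of 13 epithelial markers 5 were tested, all with a higher difference (median 0.40) and 2 at an unadjusted p under 0.05, and 6, among them Sftpc and Scgb1a1, had 3 counts or fewer in all 12 libraries. Of 14 lymphocyte and granulocyte markers, 6 were at 3 counts or fewer, among them Cd3e and Cd3g, and 1 of the 5 tested had an unadjusted p under 0.05, as did 1 of the 12 fibroblast markers. None of 10 endothelial, 8 smooth muscle and pericyte or 7 mesothelial markers tested was called, and 0, 0 and 1 of them had an unadjusted p under 0.05.

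A description of strong responders used genes picked in the other 12 libraries, after the first results were seen. They were called for the mean response to rmTGF-β1 over both genotypes in cells that also had rmCIRP, with a size of at least 1 and an average of 50 or more normalized counts in the 12 libraries compared. There were 53 that rose and 16 that fell. A mean over both genotypes can be carried by 1 of them, as for Il11, at 0.68 in WT and 1.95 in TLR4-/- with rmCIRP. The shares larger in TLR4-/- given next may thus be partly set by the choice of genes and are not a test. In the libraries without rmCIRP, the 53 had a median log2 response of 0.89 in WT and 1.38 in TLR4-/-, and the response was larger in TLR4-/- for 49 of 53. The 16 had medians of -0.74 and -1.13, and 14 of 16 were larger in size in TLR4-/-, Bc1 among them with the opposite direction. Over all 12257 genes of that level, the response was larger in size in TLR4-/- for 59.8%. The median difference was 0.50 for the 53 and -0.29 for the 16. With no limit on size, the 2701 genes called with rmCIRP that rose had a median difference of 0.04 and the 2734 that fell -0.01, and 64.1% and 60.7% of them were larger in TLR4-/-, close to the share of all genes. The difference was called for 0 of the 53 by edgeR, and for 1 of the 16, Bc1.

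The larger response of these genes was uneven between libraries. Set against the PBS mean of its genotype, the median of the 53 genes was 0.87, 0.92 and 0.82 in the 3 treated WT libraries. In the treated TLR4-/- libraries it was 1.204, 0.86 and 1.82. Library 2 of TLR4-/- thus lay within the WT range and libraries 1 and 3 above it. The treated TLR4-/- libraries kept that order in size for the 16 genes, which were at -0.62, -0.87 and -0.70 in WT and -1.24, -0.81 and -1.48 in TLR4-/-. Without library 3 of TLR4-/- with rmTGF-β1 the median difference of the 53 fell to 0.10 and that of the 16 to -0.14, with 37 of 53 and 14 of 16 larger in TLR4-/-. Without library 2 the medians were 0.70 and -0.57. Reads on genes in these 3 libraries were 35519077, 31585969 and 37949832, and the part of depth in this order was not tested.

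The genes named next were chosen after their values were seen. Jag1, a Notch ligand, had 2015, 1774 and 1795 normalized counts in WT with PBS and 3954, 4499 and 4128 with rmTGF-β1. Values in TLR4-/- were 2619.9, 2542 and 2414 with PBS and 9466, 6846 and 13280.2 with rmTGF-β1, each above every WT library. It rose by 1.17 in WT and by 1.97 in TLR4-/-, with a difference of 0.81 and an edgeR adjusted p of 0.133. Without library 3 of TLR4-/- with rmTGF-β1 the difference was 0.54. Cdh6, a cadherin, rose by 1.89 and 2.23, and St8sia2, which makes polysialic acid, by 1.79 and 2.38. Eln, which encodes elastin, went the other way, at 1.87 in WT and 1.68 in TLR4-/-. Among the genes that fell, Adm, the vasodilator peptide adrenomedullin, was at -1.37 and -1.65. Ptx3, a soluble pattern recognition protein, was at -1.39 in WT and -2.43 in TLR4-/-, with an edgeR adjusted p of 0.155 for the difference.

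**Figure D4:**
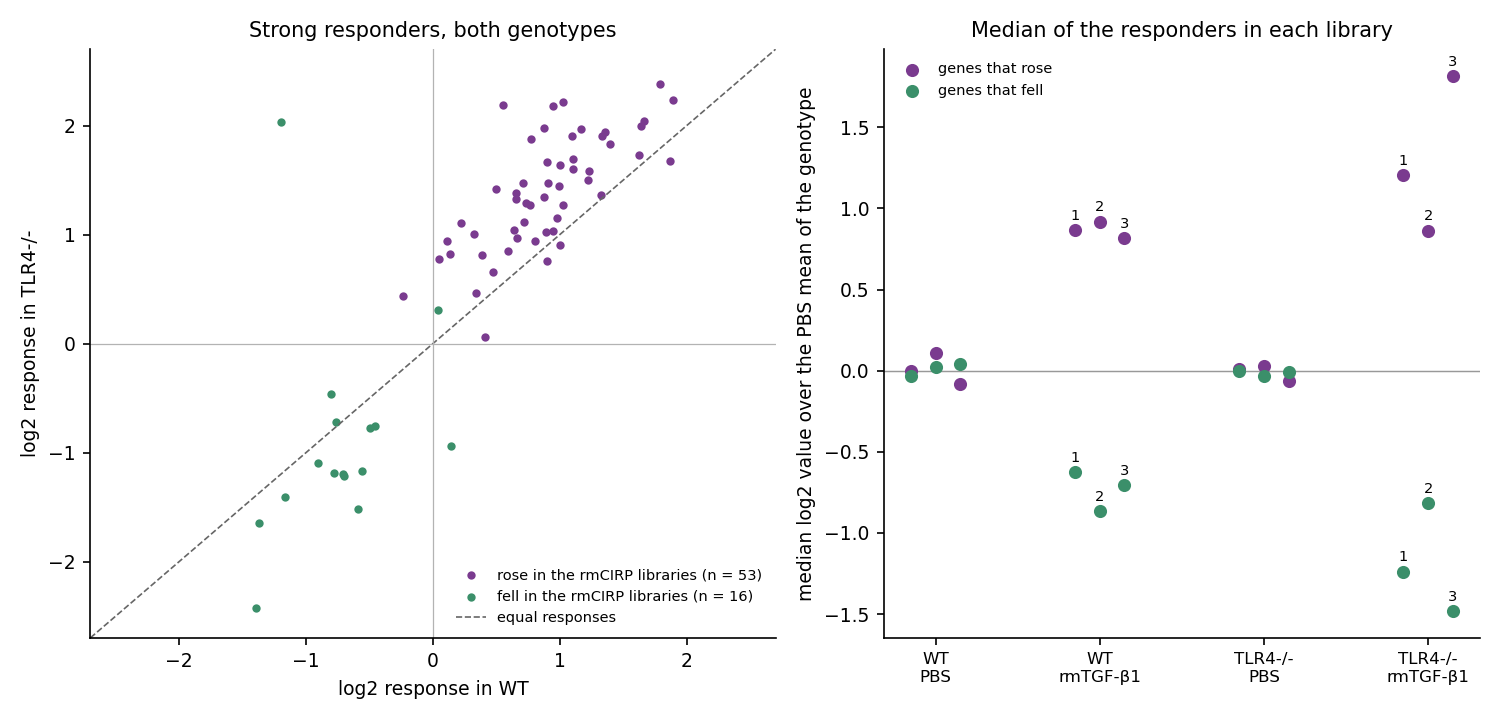
Left, log2 responses in WT and TLR4-/- of the 53 genes that rose and the 16 that fell strongly with rmTGF-β1 in the libraries with rmCIRP, with the dashed line of equal responses. Right, the median of each set in each library as a log2 value over the PBS mean of its genotype, where the 3 treated TLR4-/- libraries spread from 0.86 to 1.82 for the genes that rose and the 3 treated WT libraries from 0.82 to 0.92.

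The same contrast was taken in the 12 libraries with rmCIRP, none of which is among the 12 compared. It holds the response of each genotype to rmTGF-β1 on top of rmCIRP, and the genotype-dependent action of rmCIRP and that of rmTGF-β1 cannot be told apart in it. There, 843 genes (5.19%) were called by edgeR, 537 (3.3%) higher and 306 (1.88%) lower in TLR4-/-, and 119 of all (0.732%) with a size of at least 1. That count rests on single libraries too, and was 257 to 2633 when each was left out, the highest without library 1 of TLR4-/- with both proteins. Across the 12257 genes the differences without and with rmCIRP correlated at r = 0.23, and 56.5% of all genes tested had the same sign. Of the 1686 genes with an unadjusted p under 0.05, 60.8% had the same sign.

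Of the 14 called genes, 9 had the same sign with rmCIRP and 2 were called there too. Tmem86a differed by 0.61 without and by 0.85 ± 0.13 with rmCIRP, in the same direction (edgeR adjusted p = 0.00346). Abhd17b turned its sign, from -0.35 to 0.23 ± 0.07 (edgeR adjusted p = 0.0941). Bc1 also had the opposite sign with rmCIRP, at -0.63 ± 0.69, and there its response was -1.87 in WT and -2.50 in TLR4-/-. Acvr1 was at 0.11 ± 0.07, Hif1a at -0.08 ± 0.07 and Cited2 at 0.10 ± 0.07 with rmCIRP, none of them called. Gtf2h2, at 0.23 ± 0.09, and Kctd12, at -0.17 ± 0.07, kept their sign. Of the 18 reference genes, 3 were called in this contrast that were not called without rmCIRP, against 5.19% of all genes. These were Ccn2 at -0.49 (edgeR adjusted p = 0.0368), Col1a1 at -0.46 (edgeR adjusted p = 0.0356) and Il11 at 1.27 (edgeR adjusted p = 0.0503). In the 3 libraries of TLR4-/- with both proteins, in order, Ccn2 had 91432, 88552 and 63691 normalized counts. Col1a1 had 252212, 229073 and 174630 there, and Il11 had 26304.5, 37844 and 64181. Library 3 thus lay furthest in the direction of each difference. Without that library the calls in this contrast fell from 843 to 342, and whether these 3 genes stayed called is not reported here.

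**Figure D5:**
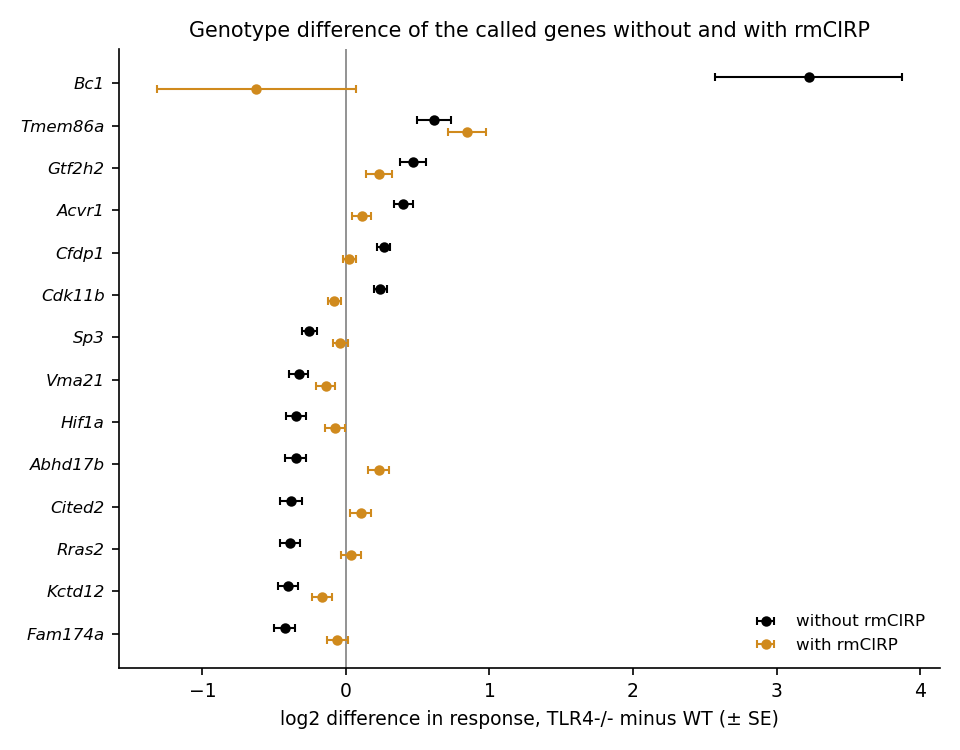
Log2 difference in the response to rmTGF-β1, TLR4-/- minus WT, of the 14 called genes in the 12 libraries without rmCIRP (black) and in the 12 with rmCIRP (orange), bars ± SE. Tmem86a lies to the right of 0 in both, while Bc1, Abhd17b, Cdk11b, Rras2 and Cited2 lie on opposite sides. Most others lie nearer to 0 with rmCIRP, and the 14 were chosen by their difference without it.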

How the data were processed

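RNA of pulmonary fibroblasts was sequenced from 24 libraries, 3 in each of 8 conditions. The authors deposited whole-number read counts per gene for each library, made with HTSeq after alignment, and the submitters' processing notes name the build NCBIM37. The strand option of the counting is not given in the sources used here. The 5 tally lines of each file (14.5% to 15.4% of reads in the 12 libraries compared) were left out. Of 34285 genes with a count, 16258 passed edgeR's filterByExpr. Counts were scaled by TMM and fitted with edgeR 4.0.16 in R 4.3.3 (glmQLFit, glmQLFTest) with 1 mean per condition over all 24 libraries, and p-values were adjusted by Benjamini-Hochberg over all genes tested, at 0.1. SEs are the log2 difference divided by the root of F. Normalized counts are counts divided by DESeq2 1.42.0 size factors. Members and lists were chosen with earlier results of these data known. Named genes were up to 15 called genes per direction that averaged 50 or more normalized counts, up to 4 called members per list, and fixed reference genes, of which 18 are given. An item of that rule is not reported here. Alternatives were DESeq2, RLE scaling, other filters, a replicate block, a threshold of 0.05, a fit on the 12 libraries alone, leaving out each library and, added after seeing the data, limma-voom (limma 3.58.1). Figures were drawn with matplotlib 3.10.9.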

Additional observations from a re-analysis of the deposited data

Results flagged for a closer look

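The test of the difference itself was passed by the 14 genes named in the report, with log2 differences in response (TLR4-/- minus WT) of 3.23 for Bc1, 0.61 for Tmem86a, 0.47 for Gtf2h2, 0.40 for Acvr1, 0.26 for Cfdp1 and 0.24 for Cdk11b. The lower ones were -0.43 for Fam174a, -0.40 for Kctd12, -0.39 for Rras2, -0.38 for Cited2, -0.35 for Abhd17b, -0.35 for Hif1a, -0.33 for Vma21 and -0.25 for Sp3. In the libraries with rmCIRP the same test was passed by Tmem86a at 0.85 and by Abhd17b at 0.23, the latter with the opposite sign. Each of the 14 kept its sign in every setting run, and each was called in 2 to 6 of the 12 fits that left out 1 of the libraries compared.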

How the results depend on the processing

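The 14 calls became 563 with no filter on low counts, 23 with a mean count of at least 10, 22 with the replicate block, 6 at an adjusted p under 0.05, 163 by DESeq2 and 25 by limma-voom, and were 0 to 119 when each library was left out. RLE scaling gave 14 and the 12 libraries alone 10, of which 6 were among the 14. In the 12 libraries compared, same-numbered libraries had deviations that correlated at a mean r of -0.015 (18 pairs). Of these pairs, 0 were above 0.1. Over all 24 libraries the mean was 0.012, and 4 of 84 pairs were above 0.1, the highest at 0.37. Single pairs among the 24 may thus share a deviation that the mean does not show. The cause of the rise to 563 was not tested, and the SE of Il11 was 0.336 with the filter and 0.0596 without. With rmCIRP the 843 calls became 1811 with no filter, 342 at an adjusted p under 0.05, 1112 with the replicate block, 186 in those libraries alone and 257 to 2633 with each library left out. The WT response had 1029 to 1690 calls and the TLR4-/- response 2517 to 3783 with each library left out. Small values changed sign: the difference of Fn1 was -0.013 with no filter, and the TLR4-/- response of Tgfbr2 was 0.00028 by limma-voom. With each library left out, the difference ranged from -0.13 to 0.036 for Acta2, from -0.061 to 0.017 for Ccn2, from -0.055 to 0.067 for Fn1, from -0.046 to 0.11 for Nox4, from -0.077 to 0.027 for Skil, from -0.0603 to 0.041 for Smad7, from -0.014 to 0.20 for Tgfb1 and from -0.0698 to 0.022 for Tlr4. The WT response ranged from -0.019 to 0.057 for Acta2, from -0.18 to 0.035 for Col3a1, from -0.0602 to 0.013 for Hif1a, from -0.27 to 0.057 for Il6, from -0.0204 to 0.024 for Sp3 and from -0.0098 to 0.16 for Tagln, and the TLR4-/- response from -0.097 to 0.0497 for Acta2 and from -0.0405 to 0.024 for Tgfbr2. Among the genes named by rule, fits with a library left out gave the same side of the threshold and direction for 259 differences, lost the call for 106 and turned the sign for 19. The spread between 3 libraries of a condition limits the precision, and all p-values rest on it.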

Other observations

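Among the genes just outside the threshold, with an edgeR adjusted p of 0.105 each, were Bmt2 at -0.37, Nvl at 0.25, Dusp6 at 0.31 and Scand1 at -1.35 (log2 difference in response, TLR4-/- minus WT). Dusp6, which encodes a phosphatase that acts on ERK, fell by 0.28 in WT and was at 0.03 in TLR4-/-, and with rmCIRP its difference was 0.40, with an edgeR adjusted p of 0.00577. Scand1 rose by 0.82 in WT and fell by 0.53 in TLR4-/-, and with rmCIRP its difference had the opposite sign, at 0.71 ± 0.30.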
